A study of Mus musculus with 8 samples.

Results

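The genes described here are 10 genes of glucocorticoid signalling, picked by name from the count table: the receptors Nr3c1 and Nr3c2, the steroid-activating enzyme Hsd11b1, the receptor co-chaperone Fkbp5, and the response genes Sgk1, Tsc22d3, Errfi1, Zbtb16, Mt1 and Mt2. All 10 were found by symbol among the 54735 genes of the table, and all 10 passed the filter on low counts, which left 16538 genes. The study sequenced messenger RNA from bilateral punches of the ventral tegmental area (VTA), the midbrain region that holds dopamine neurons projecting to the forebrain, in young DBA2/J mice, an inbred strain. It asked how social stress in early life alters this region. The social stress (SS) group was 4 pups, each placed with a gonadectomized adult CD1 male in that male's cage for 30 min per day from postnatal day (P) 14 to P21. The control (CTR) group was 4 pups whose litters were left undisturbed with their mothers. Each library came from 1 mouse, labelled male and aged P21, and the labels name no genetic change in either group. According to the methods, the SS mice were killed on the day after the last exposure, whereas the labelled age of P21 is the day of that exposure, so the interval between the last exposure and sampling is uncertain. A litter could give more than 1 mouse to a group, and the labels do not tie libraries to litters, so the spread between libraries is the only error measured here.

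Glucocorticoids, chiefly corticosterone in the mouse, act on cells through the glucocorticoid receptor, encoded by Nr3c1, and the mineralocorticoid receptor, encoded by Nr3c2, which binds the same hormone with higher affinity. Unliganded glucocorticoid receptor is held in the cytoplasm by a chaperone complex; after binding the hormone it moves to the nucleus and changes transcription, often at a palindromic DNA element. Fkbp5, Sgk1, Tsc22d3 and Zbtb16 are widely used as transcriptional readouts of this receptor, and the metallothionein genes Mt1 and Mt2 respond to glucocorticoids as well as to zinc and other metals.

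The sequences before the start sites of Sgk1, Mt1 and Mt2 are shown because glucocorticoid and metal response elements are the DNA elements through which genes of these kinds are known to respond to hormone and to metal. They are 250-base stretches ending at the base before the start site, taken from RefSeq on GRCm38.p6, all on the plus strand. Promoters were found for 8 of the 10 genes (16 windows), and Nr3c1 and Zbtb16 had no entry. In Sgk1 (chr10:21993640-21993889), the capitals mark a full glucocorticoid response element, searched on both strands as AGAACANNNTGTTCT, 189 to 175 bases before the start. In Mt1 (chr8:94178839-94179088) and Mt2 (chr8:94172368-94172617), the capitals mark matches to TGCNCNC, searched on both strands as a loose pattern for metal response elements. N stands for any base, so a match need not be such an element.
Sgk1: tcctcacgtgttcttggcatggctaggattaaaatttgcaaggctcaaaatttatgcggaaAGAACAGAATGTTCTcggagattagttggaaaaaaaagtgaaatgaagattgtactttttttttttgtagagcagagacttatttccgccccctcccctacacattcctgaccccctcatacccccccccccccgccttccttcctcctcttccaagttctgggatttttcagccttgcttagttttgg
Mt1: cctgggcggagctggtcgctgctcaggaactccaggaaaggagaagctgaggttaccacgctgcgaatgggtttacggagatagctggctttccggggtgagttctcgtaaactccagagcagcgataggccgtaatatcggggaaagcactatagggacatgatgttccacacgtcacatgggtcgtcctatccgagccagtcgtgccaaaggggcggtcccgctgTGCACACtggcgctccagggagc
Mt2: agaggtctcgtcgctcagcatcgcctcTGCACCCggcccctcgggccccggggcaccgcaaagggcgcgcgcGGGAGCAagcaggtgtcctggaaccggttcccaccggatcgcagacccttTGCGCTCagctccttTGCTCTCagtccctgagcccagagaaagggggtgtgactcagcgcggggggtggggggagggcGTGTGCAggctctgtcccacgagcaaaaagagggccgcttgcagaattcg

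The full element was present in 3 of 32851 promoters of this length (0.00913%), and the Sgk1 window shown was one of these. This window was 1 of 6 listed for Sgk1, and the other windows of the gene lacked the full element. The shorter half-site AGAACA, which the full element contains, was present in 16.1% of all promoters and in 4 of the 16 windows of these genes, which belonged to Sgk1 and Tsc22d3. The loose metal pattern TGCNCNC was present in 44.4% of all promoters, whereas 4 or more matches were present in 1.28%. Mt2 had 5 matches and Mt1 had 1 match in the 250 bases before the start site used. The 50 bases after that site were not searched. These counts therefore depend on the start site and on the looseness of the pattern, and do not compare all metal response elements of Mt1 and Mt2. All matches are of letters, and no binding was measured.

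Library totals ranged from 20036086 counts in CTR-1 to 47319997 in SS-3. CTR-1 and CTR-2 stood apart, with 1425 and 1236 of the 16538 genes at 0 counts against 22 to 459 in the other libraries, and CTR-5 and SS-5 went against their male label, with 14997 and 6551 counts of Xist, the transcript of the inactive X chromosome, against at most 3 elsewhere. Summed over 8 markers of dopamine neurons, which define the labelled tissue, CTR libraries held 865 to 1986 CPM and SS libraries 194 to 252 CPM. CPM are read counts relative to the library total of the genes that passed the filter, scaled for library composition. The 6 markers of excitatory neurons of cortex and hippocampus, led by Slc17a7, summed to 536 CPM in CTR-5, 283 CPM in CTR-2 and 31.3 to 107 CPM in the other libraries. Single-library values are listed in the order of the library numbers, which are 1, 2, 3 and 5 for CTR and 2, 3, 4 and 5 for SS. Values below are CPM scaled for library composition in the same way as these marker sums. Fold changes are log2 of SS over CTR with standard error (SE), from edgeR's quasi-likelihood test. The Benjamini-Hochberg adjustment was made over all 16538 genes. In such bulk samples fewer cells of a type and less RNA per cell cannot be told apart.

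None of the 10 genes passed an adjusted p of 0.05, in edgeR or in DESeq2, against 0.0847% of all genes (14 genes) in edgeR and 81 genes in DESeq2. At an unadjusted p under 0.05 there were 2 of the 10, Sgk1 and Errfi1, against 6.55% of all genes. Both were lower in SS, against 3.7% of all genes that were lower at this unadjusted p. In sign, 9 of the 10 had a lower estimate in SS and Hsd11b1 a slightly higher one, against 49.4% of all genes with a lower estimate. The median log2 fold change was -0.23 over the 10 genes and 0.0037 over all genes. In none of the 10 did the SS values stand clear of the CTR values, and over all genes 4.67% had groups that did not overlap. With so small a share, none among 10 genes is no contrast with all genes. The sign count depended on the libraries: 9 lower became 6 lower and 4 higher in the 6 libraries without Xist, and 8 lower and 2 higher without CTR-1 and CTR-2.

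**Figure D1:**
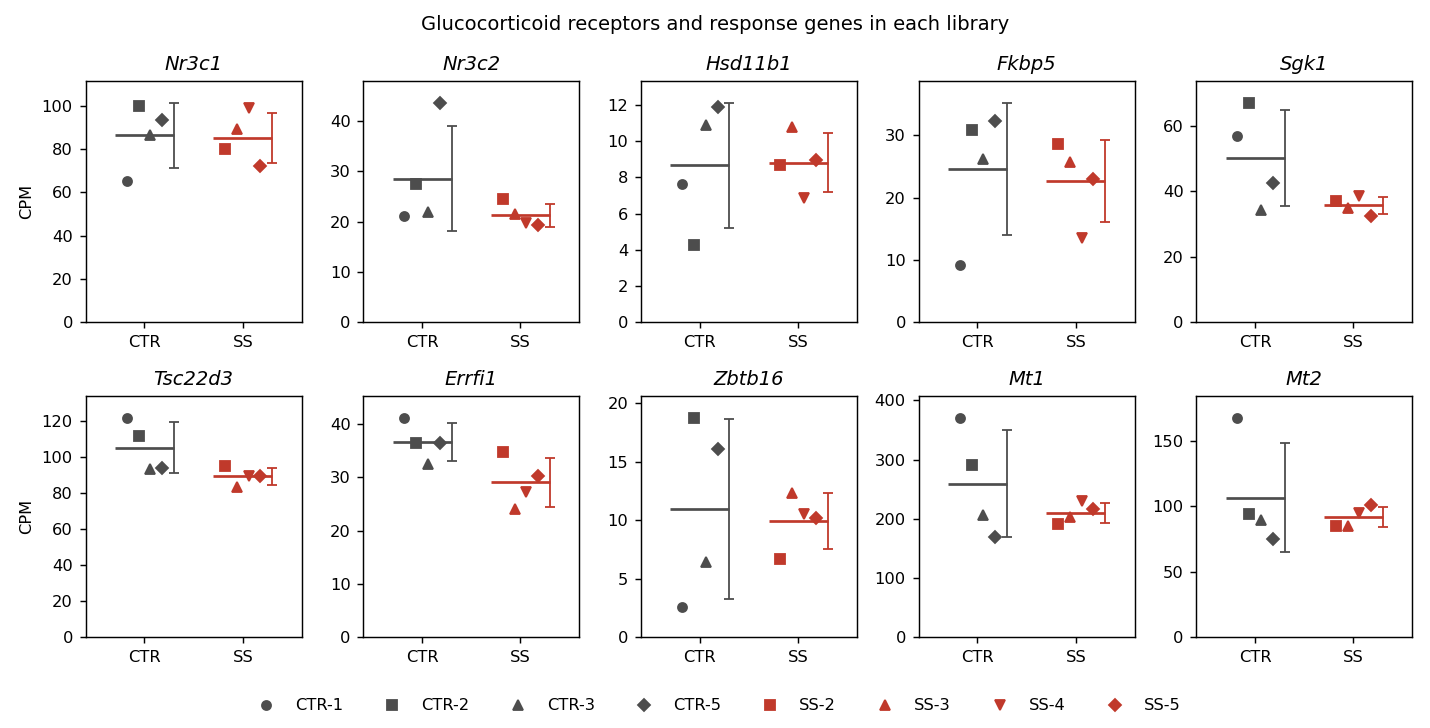
Level of each of the 10 genes in CPM, on an axis that starts at 0 for each gene, in the 4 CTR and 4 SS libraries; each point is a library and the bar is the mean with its SD. The groups overlap for every gene, and the CTR points are the more widely spread for 9 of the 10.

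**Figure D2:**
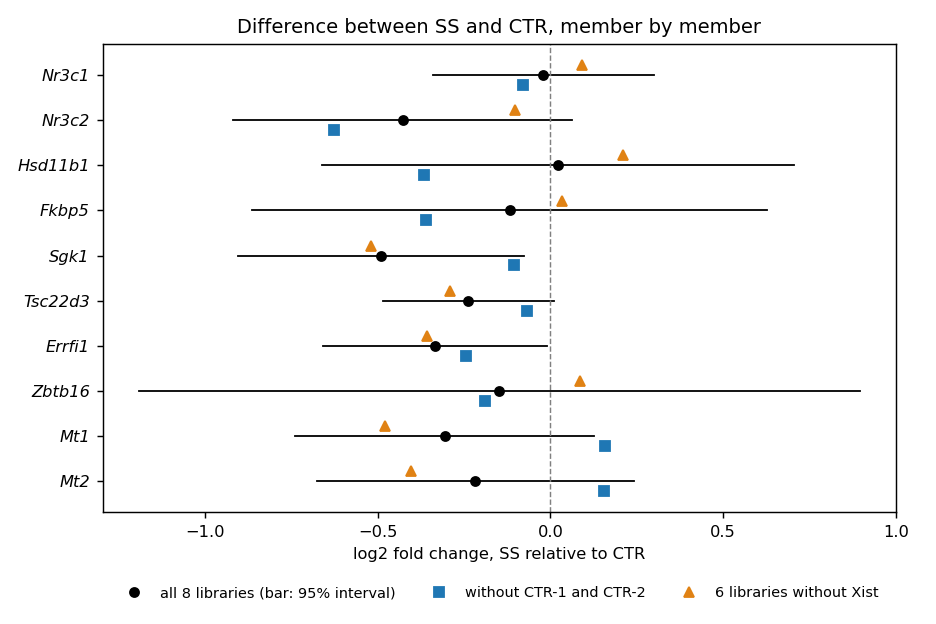
Log2 fold change of each gene in SS against CTR with its 95% interval from edgeR's quasi-likelihood test over 4 libraries per group. The intervals of Sgk1 and Errfi1 lie just below 0, and the other 8 intervals include 0.

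The glucocorticoid receptor gene Nr3c1 had near-equal means in both groups. Its values were 65.3, 99.7, 86.5 and 93.5 CPM in CTR and 79.9, 89.3, 98.9 and 72.2 CPM in SS. All 4 SS values lay inside the CTR range. The means were 86.3 ± 14.98 CPM for CTR against 85.1 ± 11.6 CPM for SS (± SD, n = 4). The log2 fold change was -0.02 (SE 0.15), with a 95% interval from -0.34 to 0.30 and an adjusted p of 0.988. The sign of this estimate changed under several settings, with a range from -0.13 to 0.06 when single libraries were left out.

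The mineralocorticoid receptor gene Nr3c2 (chr8:76899442-77245012, GRCm38, GENCODE M21) had a lower mean in SS that did not pass the test and whose size depended on the controls. It measured 21.1, 27.5, 21.9 and 43.5 CPM in CTR and 24.4, 21.6, 19.6 and 19.3 CPM in SS. CTR-5 stood well above the other 7 libraries, which spanned 19.3 to 27.5 CPM. The means were 28.5 ± 10.4 CPM for CTR against 21.2 ± 2.35 CPM for SS (± SD, n = 4), with log2 fold change -0.43 ± 0.22 (SE) at an adjusted p of 0.755. Without CTR-5 the log2 fold change was -0.15, and in the 6 libraries without Xist it was -0.10. It was -0.55 without CTR-1, -0.54 without CTR-3 and -0.63 without CTR-1 and CTR-2, with unadjusted p of 0.0253, 0.0431 and 0.0201 in edgeR. CTR-5 and CTR-2 held both the highest Nr3c2 values and the highest sums of cortical excitatory markers, and the part of that tissue in the result was not tested. Scaled by the length of the exons, the level of Nr3c1 exceeded that of Nr3c2 in every library, by a ratio of 1.81 to 3.33 in CTR and 2.76 to 4.25 in SS.

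Hsd11b1 (chr1:193221634-193264075), which encodes the enzyme that regenerates active corticosterone inside cells, had near-equal means. The CTR values were 7.65, 4.28, 10.9 and 11.9 CPM in CTR, and the SS values were 8.68, 10.8, 6.85 and 8.93 CPM in SS. CTR libraries were thus both the lowest and the highest. The means were 8.67 ± 3.44 CPM for CTR against 8.81 ± 1.61 CPM for SS (± SD, n = 4), with log2 fold change 0.02 ± 0.31 (SE) at an adjusted p of 0.994, and the 95% interval from -0.66 to 0.71 left room for a moderate difference either way. Without CTR-1 and CTR-2 every SS value lay below both remaining controls, with a log2 fold change of -0.36. The gene lies opposite Lamb3, which held 458 counts over the 8 libraries beside 2269 for Hsd11b1; whether the counting used strand is not given in the sources used here. The same limit holds for Nr3c2 beside Gm10649 (305 counts against 6387) and for Mt2 beside the antisense Gm45774 (241 against 23438).

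Fkbp5 (chr17:28399094-28517527) encodes an immunophilin that binds the receptor complex, lowers its affinity for hormone and is itself induced by the receptor, closing a short feedback loop. Its CTR values were 9.20, 30.8, 26.2 and 32.3 CPM in CTR, and its SS values were 28.6, 25.7, 13.5 and 23.1 CPM in SS. One library of each group, CTR-1 and SS-4, lay far below the rest, and the other 6 spanned 23.1 to 32.3 CPM. Mean levels were 24.6 ± 10.6 CPM for CTR against 22.7 ± 6.53 CPM for SS (± SD, n = 4). The log2 fold change was -0.12 ± 0.34 (SE) at an adjusted p of 0.959, with a 95% interval from -0.86 to 0.63. Leaving out single libraries moved it between -0.39 and 0.07, so its direction was not set by these data.

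Sgk1, Tsc22d3 and Errfi1 are early targets of the receptor, and each had a lower mean in SS that did not pass the adjusted test. Sgk1 (chr10:21882184-21999903), the serum- and glucocorticoid-regulated kinase that controls ion channels and transporters, measured 56.9, 66.9, 34.2 and 42.6 CPM in CTR. The SS libraries measured 37.0, 34.8, 38.5 and 32.4 CPM. All controls but CTR-3 lay above every SS library, and CTR-3 lay among them. Means were 50.2 ± 14.6 CPM for CTR against 35.7 ± 2.66 CPM for SS (± SD, n = 4), and the log2 fold change was -0.49 (SE 0.19), with a 95% interval from -0.90 to -0.08. The unadjusted p was 0.0244 in edgeR, the adjusted p was 0.755, and the exact two-sided permutation test gave p = 0.114 (the smallest possible with 4 against 4 is 0.029). The 2 highest values were those of CTR-1 and CTR-2, the libraries with the most genes at 0 counts. Without them the log2 fold change of Sgk1 was -0.11 with an unadjusted p of 0.448 in edgeR. Leaving out single libraries moved it between -0.32 without CTR-2 (unadjusted p = 0.092 in edgeR) and -0.64 without CTR-3 (unadjusted p = 0.00312 in edgeR), and in the latter case the groups did not overlap.

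Errfi1 (chr4:150853919-150868892) encodes an inhibitor of the epidermal growth factor receptor family. It measured 41.2, 36.5, 32.4 and 36.5 CPM in CTR and 34.8, 24.0, 27.2 and 30.3 CPM in SS. Only SS-2 exceeded a control, CTR-3. The means were 36.7 ± 3.57 CPM for CTR against 29.1 ± 4.57 CPM for SS (± SD, n = 4). The log2 fold change was -0.33 (SE 0.15) with an unadjusted p of 0.0444 and an adjusted p of 0.755 in edgeR, and the exact permutation test gave p = 0.0571. Leaving out single libraries moved the log2 fold change between -0.43 and -0.25, and it was -0.25 without CTR-1 and CTR-2, so its direction held in each of these fits, while the unadjusted p stayed under 0.05 only without CTR-3 or without SS-2.

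Tsc22d3 (chrX:140539528-140600659), also known as GILZ, encodes a leucine zipper protein that mediates anti-inflammatory actions of glucocorticoids. The control libraries measured 122, 112, 93.3 and 94.3 CPM, and the SS libraries measured 95.2, 83.4, 89.4 and 89.7 CPM. CTR-1 and CTR-2 were clearly above the rest, and the other 6 libraries spanned 83.4 to 95.2 CPM. Group means were 105 ± 14.01 CPM for CTR against 89.4 ± 4.84 CPM for SS (± SD, n = 4), with log2 fold change -0.24 ± 0.11 (SE) at an adjusted p of 0.755. Without CTR-1 and CTR-2 it was -0.07.

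Zbtb16 (chr9:48654297-48836222), which encodes the zinc finger repressor PLZF, was the most variable of the 10 genes among the controls, whereas among the SS libraries Fkbp5 was (coefficient of variation 28.7% against 23.8% for Zbtb16). Its counts were as low as 50 in CTR-1. Levels were 2.58, 18.7, 6.44 and 16.1 CPM in CTR and 6.70, 12.4, 10.5 and 10.2 CPM in SS. All SS values fell within the CTR range, with CTR means of 10.97 ± 7.69 CPM against 9.94 ± 2.37 CPM in SS (SD, n = 4 each). The log2 fold change was -0.15 ± 0.48 (SE) at an adjusted p of 0.965, and its 95% interval from -1.19 to 0.90 was the widest of the 10. The high controls, CTR-2 and CTR-5, were again those with the highest cortical excitatory marker sums, a link that was not tested.

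The neighbouring metallothionein genes Mt2 (chr8:94172664-94173568) and Mt1 (chr8:94179082-94180327) encode small cysteine-rich proteins that bind zinc and copper. They lie on the same strand, 5513 bp apart, and share no 75-base stretch (the read length), so that a full-length exact read cannot come from both. Mt1 measured 371, 291, 207 and 169 CPM in CTR and 191, 203, 230 and 216 CPM in SS. Only CTR-1 and CTR-2 exceeded the SS range, and CTR-5 fell below it. The log2 fold change of Mt1 was -0.31 (SE 0.20, adjusted p = 0.794). It was -0.083 without CTR-1, -0.46 without CTR-5 (unadjusted p = 0.0164 in edgeR) and -0.48 in the 6 libraries without Xist (unadjusted p = 0.0304 in edgeR). Mt2 measured 168, 94.1, 89.8 and 75 CPM in the same CTR libraries and 85.4, 85.4, 95.4 and 101 CPM in the SS libraries. CTR-1 alone stood above the SS range for Mt2, and the log2 fold change was -0.22 ± 0.21 (SE) at an adjusted p of 0.864. Without CTR-1 the log2 fold change of Mt2 was 0.09, and without CTR-1 and CTR-2 it was 0.16 for both genes. The ratio of Mt1 to Mt2 counts was 3.09 in CTR-2 and 2.14 to 2.41 in the other 7 libraries.

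The SD among the controls exceeded the difference between the group means for all of the 10 genes but Tsc22d3 and Errfi1. The coefficient of variation was larger in CTR for 9 of the 10, with Errfi1 the exception (9.74% in CTR, 15.7% in SS), and ranged in CTR up to 70.2% for Zbtb16. This was no property of these genes alone: over all 16538 genes the median coefficient of variation was 25.5% in CTR and 13.3% in SS, and it was larger in CTR for 82.9% of them. For every one of the 10 genes the highest of the 8 libraries was a control. CTR-1 was highest for Tsc22d3, Errfi1, Mt1 and Mt2 and lowest for Nr3c1, Fkbp5 and Zbtb16, while CTR-2 was highest for Nr3c1, Sgk1 and Zbtb16, and CTR-5 for Nr3c2, Hsd11b1 and Fkbp5.

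**Figure D3:**
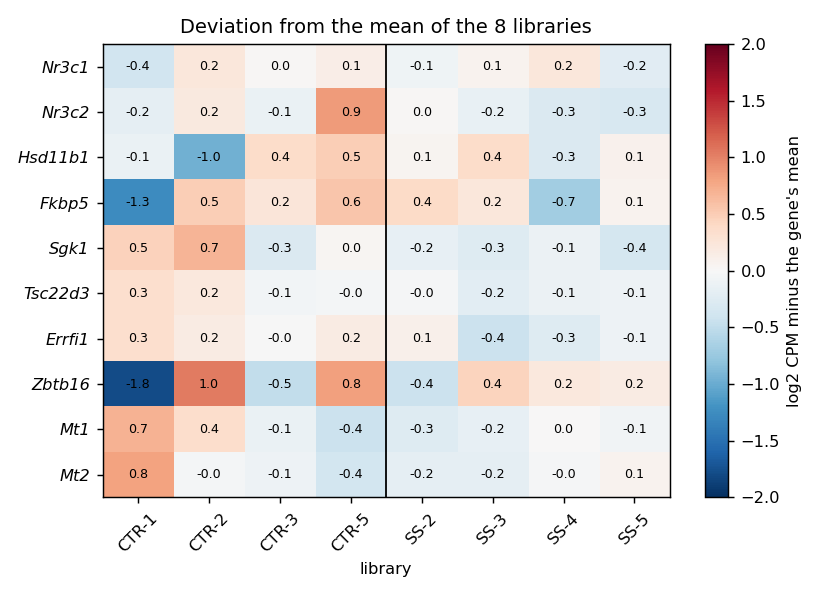
Deviation of each library from the mean of all 8 libraries for each of the 10 genes, in log2 CPM, with libraries as columns and colour and number giving the sign and size. CTR-1 is far above the mean for Mt1 and Mt2 and far below it for Fkbp5 and Zbtb16, and most SS values are closer to the mean.

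Scaled by exon length, the mean level over the 8 libraries was 188 CPM per kb for Mt1 and 169 CPM per kb for Mt2, far above 22.4 for Tsc22d3, 11.2 for Nr3c1, 9.18 for Errfi1, 8.75 for Sgk1, 3.84 for Nr3c2, 2.50 for Fkbp5, 2.06 for Hsd11b1 and 1.98 for Zbtb16. Exons were joined over all annotated transcripts, which gave 1246 bp for Mt1, the whole span of the gene, and 588 bp for Mt2. A shorter length for Mt1 would raise its level per kb, so the closeness of Mt1 to Mt2 depends on these lengths. With these lengths, the order of Mt1, Mt2, Tsc22d3 and Nr3c1 held in all 8 libraries, as did that of Sgk1 over Nr3c2 and of Nr3c2 over Fkbp5. Nr3c1 exceeded Errfi1 in 7 of 8 libraries. Errfi1 exceeded Sgk1 in 4, Fkbp5 exceeded Hsd11b1 in 6 and Hsd11b1 exceeded Zbtb16 in 5, so these neighbours cannot be ranked.

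Of the 45 pairs among the 10 genes, correlated over the 8 libraries as log2 CPM, 22 were positive and 23 negative. No Pearson correlation passed an adjusted p of 0.05 and 1 Spearman correlation did, that of Tsc22d3 with Errfi1. Both genes had a lower estimate in SS, and the permutations ignored group, so this shared difference enters their correlation. This pair had r = 0.85 (exact permutation p = 0.0071, adjusted p = 0.142) and rho = 0.976 (exact permutation p = 0.000397, adjusted p = 0.0179). Its r was 0.718 for deviations from the group means. It was 0.955 without CTR-1 and CTR-2, the libraries farthest from the median of Tsc22d3. Mt1 and Mt2 had r = 0.892 (exact permutation p = 0.0033, adjusted p = 0.142) and rho = 0.881 (exact permutation p = 0.0072, adjusted p = 0.109), and r was 0.917 without those same libraries. Fkbp5 and Mt2 were inversely related, with r = -0.856 (exact permutation p = 0.0105, adjusted p = 0.142) and rho = -0.762 (exact permutation p = 0.0368, adjusted p = 0.276), and r was -0.665 without CTR-1 and SS-4. The receptor gene Nr3c1 and Zbtb16 had r = 0.801 (exact permutation p = 0.0145, adjusted p = 0.142) and rho = 0.833 (exact permutation p = 0.0154, adjusted p = 0.173), and r was 0.774 without CTR-1 and SS-5. Nr3c2 and Fkbp5 agreed more in rank than in level, with rho = 0.905 (exact permutation p = 0.00456, adjusted p = 0.103) and r = 0.538 (exact permutation p = 0.162, adjusted p = 0.415), and r was 0.44 without CTR-2 and CTR-5. All of these pairs but Tsc22d3 with Errfi1 missed both adjusted tests, and further pairs rested wholly or partly on CTR-1 and CTR-2. Tsc22d3 and Mt1 had r = 0.826 (exact permutation p = 0.0195, adjusted p = 0.146) and rho = 0.333 (exact permutation p = 0.428, adjusted p = 0.688), and r was -0.454 without these libraries. Sgk1 and Tsc22d3 had r = 0.877 (exact permutation p = 0.0158, adjusted p = 0.142) and rho = 0.667 (exact permutation p = 0.0831, adjusted p = 0.415), and r was 0.39 without CTR-1 and CTR-2. For Sgk1 and Mt1, r was 0.730 (exact permutation p = 0.0406, adjusted p = 0.194), and -0.599 without CTR-1 and CTR-2. For Zbtb16 and Mt2, r was -0.780 (exact permutation p = 0.0465, adjusted p = 0.194), and -0.401 without CTR-1 and CTR-2. The libraries share differences in depth and in genes at 0 counts, and the part of these in the correlations was not tested.

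**Figure D4:**
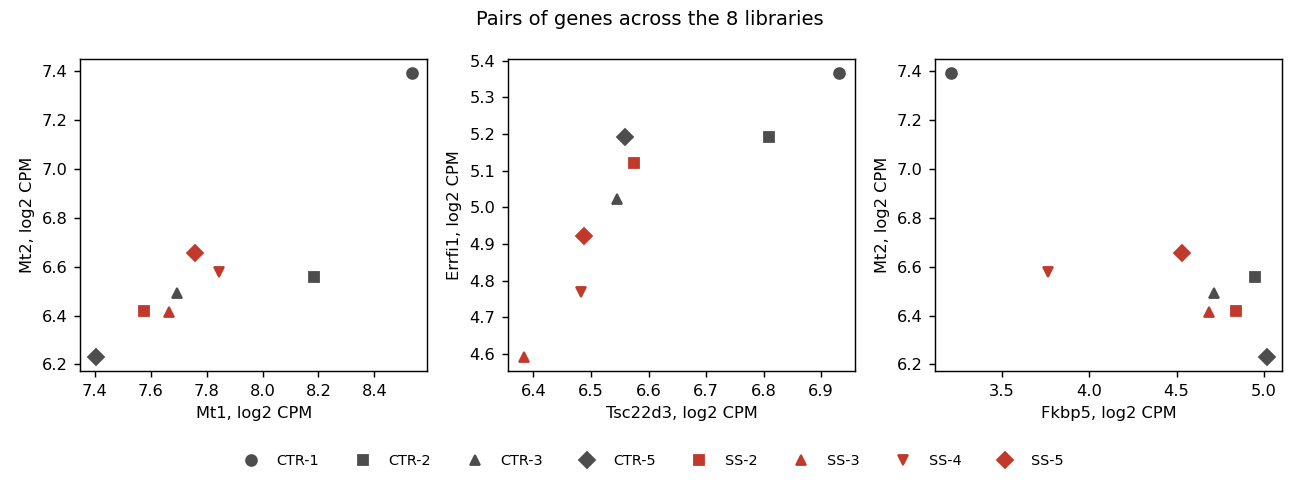
Levels of 3 pairs of the genes (Mt1 with Mt2, Tsc22d3 with Errfi1, Fkbp5 with Mt2) in log2 CPM, each point a library, with CTR and SS told apart by colour. Mt1 and Mt2 move together, as do Tsc22d3 and Errfi1, with r of 0.892 and 0.85, while Fkbp5 and Mt2 run opposite, with CTR-1 at one corner.

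The rest of the pathway, in lists chosen by function, gave no gene past an adjusted p of 0.05 in edgeR. At an unadjusted p under 0.05 there were 2 chaperones and 1 glucocorticoid-induced gene that were lower, and 1 glucocorticoid-induced gene that was higher, among the lists other than the coregulators; over all genes 3.7% were lower and 2.85% higher at this p. Of 10 receptor chaperones, 9 had a lower and 1 a higher estimate in SS (median log2 fold change -0.14). Hsp90ab1, the constitutive Hsp90 that folds the receptor, had means of 1800 ± 73.0 CPM for CTR against 1599 ± 75.2 CPM for SS (± SD, n = 4), with log2 fold change -0.17 ± 0.064 (SE) at an adjusted p of 0.755. Hspa8, the constitutive Hsp70, had means of 754 ± 61.1 and 639.9 ± 23.4 CPM, with log2 fold change -0.24 ± 0.078 (SE) at an adjusted p of 0.713. For both chaperones the CTR and SS values did not overlap, as in 4.67% of all genes, and both missed the adjusted test. All 10 receptor coregulators had a higher estimate in SS, with a median of 0.11. CTR-1 was the lowest library for the summed coregulators, with 676 CPM against 954 to 1054 CPM in the others.

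Of 20 other glucocorticoid-induced genes, 19 were tested, with 9 lower and 10 higher and a median log2 fold change of 0.0035. In that list Rhob, a small GTPase, had the highest level and a log2 fold change of 0.0035, and Mertk, a phagocytosis receptor, had the smallest p (log2 fold change -0.54, adjusted p = 0.755). Of 10 genes of steroid metabolism and transport 7 were tested, 1 lower and 6 higher; Srd5a1, which reduces steroids, was the highest in level, and Akr1c14 had the smallest p with a log2 fold change of 2.71 (SE 1.37, unadjusted p = 0.0725 in edgeR). Hsd11b2, which inactivates corticosterone, had no counts in 7 libraries and 14 in SS-3. Of 7 metallothionein and zinc genes 6 were tested, 2 lower and 4 higher. Mt3, the brain metallothionein, measured 219 ± 83.1 CPM for CTR against 173 ± 12.7 CPM for SS (± SD, n = 4), a log2 fold change of -0.33 (unadjusted p = 0.126 in edgeR), and Slc30a3, a zinc transporter of synaptic vesicles, had the smallest p of the list (log2 fold change -0.68, unadjusted p = 0.0764). The 12 relatives and partners of Sgk1, Tsc22d3 and Errfi1 split into 5 lower and 7 higher, with Nedd4, a ubiquitin ligase, highest in level (0.14) and Egfr, which Errfi1 inhibits, smallest in p (log2 fold change 0.61, unadjusted p = 0.115).

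**Figure D5:**
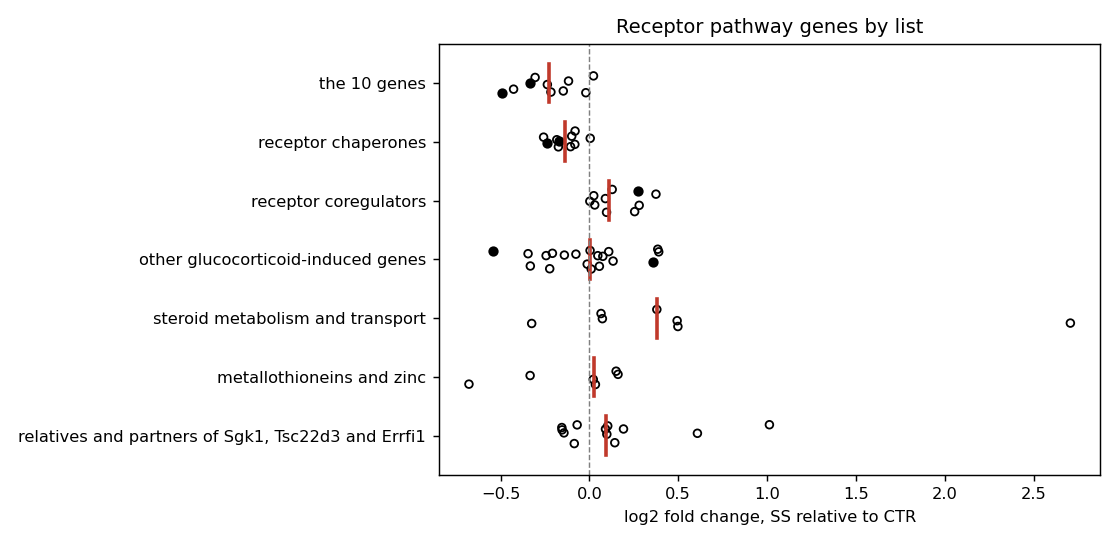
Log2 fold change in SS against CTR of the 10 genes and of each tested gene of the 6 pathway lists, each point a gene, filled where its unadjusted p was under 0.05, and the bar the median. The chaperones lie mostly below 0 and the coregulators above 0, and no gene passes the adjusted test.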

How the data were processed

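The deposited table held whole-number counts of reads per gene, not normalized by the authors, for 8 libraries of 75-base single reads. Per the labels and methods, reads were checked with FastQC, trimmed with cutadapt, aligned to mm10 with STAR and counted with HTSeq. Whether the counting used strand is not given in the sources used here. The 10 genes, the pathway lists and the markers were chosen with earlier results of these data known.

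Genes were filtered with filterByExpr (16538 of 54735 kept), scaled by TMM and tested with edgeR 4.0.16 (glmQLFit, glmQLFTest; R 4.3.3) on the group alone, with the Benjamini-Hochberg adjustment. Single genes were also tested by exact permutation of log2 CPM (prior count 2, 70 assignments), and pairs by 40320 pairings. The fits were tested on simulated data. DESeq2 1.42.0, limma 3.58.1 and other settings were alternatives. From each pathway list the text names the gene highest in level, the gene with the smallest p and any past the test, except 1 gene that is not reported here; Hsd11b2 was added after its values were seen. Levels per kb used the exons of GENCODE M21, joined over all annotated transcripts of a gene. Deviations from group means were near uncorrelated between libraries of the same replicate number (-0.0062, -0.0077 and 0.060 for numbers 2, 3 and 5). This does not settle whether equal numbers mark pairs. Within each group no libraries were duplicates, and pairs across the groups were not checked.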

Additional observations from a re-analysis of the deposited data

How the results depend on the processing

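None of the 10 genes passed an adjusted p of 0.05 in any of the 21 alternatives. Of 210 estimates for single genes, 188 kept their direction and side of the threshold and 22 reversed; the cause was not tested. Leaving out single libraries moved the log2 fold change of Nr3c1 between -0.13 and 0.057, of Hsd11b1 between -0.20 and 0.22, of Fkbp5 between -0.39 and 0.066, of Zbtb16 between -0.47 and 0.23 and of Mt2 between -0.35 and 0.089. Library totals without TMM gave 0.035 for Nr3c1. The 6 libraries without Xist gave 0.091 for Nr3c1, 0.032 for Fkbp5 and 0.086 for Zbtb16. Without CTR-1 and CTR-2, an alternative chosen after seeing the data, the log2 fold change was -0.36 for Hsd11b1 and 0.16 for both Mt1 and Mt2.

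Over all genes 14 passed, against 81 with DESeq2 (60 lower, 21 higher), 27 with edgeR's bias-adjusted estimate, 22 with no filter on low counts, 22 with a mean count of at least 50, 9 in the 6 libraries without Xist, 7 at an adjusted p under 0.01, and 6 (without SS-4) to 19 (without CTR-2) when single libraries were left out. The number of the 10 genes whose groups did not overlap was 0, from 0 to 2 when single libraries were left out, and 1 without CTR-1 and CTR-2. At an unadjusted p under 0.05 there were 0 to 4 of the 10 genes across the alternatives, a count added after seeing the data.

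The labels number libraries across groups, and whether equal numbers mark pairs is not known. CTR-5 and SS-5, which held nearly all Xist counts, share a number. With the replicate number as a block, over all genes 9 passed, none of the 10 genes passed, and Mt2 had a log2 fold change of 0.070.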

Other observations

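Over the 8 libraries, the genes whose log2 CPM was most like that of Nr3c1 were Mtdh (r = 0.961), Ank1 (r = 0.960) and Bmp3 (r = 0.957), and 58 genes had r over 0.9. For Fkbp5 they were Gucy1b1 (r = 0.981), Gphn (r = 0.978) and the receptor co-chaperone St13 (r = 0.977), and 177 genes had r over 0.9. The points share depth and tissue makeup, so these values describe likeness in 8 libraries only.

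The 8 immediate early genes, which neurons switch on within minutes of activity, all had a higher estimate in SS (median log2 fold change 0.51), with 2 at an unadjusted p under 0.05, against 2.85% of all genes that were higher at this p, and none past the adjusted test in edgeR. Their summed level was 147 to 326 CPM in CTR and 255 to 334 CPM in SS, with CTR-2 inside the SS range.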
